A study of Mus musculus with 82 samples.

Results

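In this series, 10 genes of histone H3 lysine 9 (H3K9) methylation and of silencing built on it were described by where the Adnp and HP1γ peaks of mouse embryonic stem cells lie in and around them. The genes are Setdb1, Setdb2, Ehmt1, Ehmt2, Suv39h2, Trim28, Atf7ip, Mphosph8, Morc3 and Resf1, and they were found by symbol among 21523 protein-coding genes of the GRCm38 assembly. All 10 matched. They were selected on function, but with peak counts of these lists already known, so every count below is a description and carries no test.

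H3K9 methylation is the mark of silent chromatin that HP1 proteins bind through their chromodomains. In embryonic stem cells the Setdb1 enzyme is brought to retroelements and imprinted regions by the corepressor Trim28, which itself is recruited by KRAB zinc finger proteins, while the enzymes encoded by Ehmt1 and Ehmt2 (GLP and G9a) act as a pair on wider domains. Adnp, a zinc finger and homeodomain protein, forms the ChAHP complex with Chd4 and HP1, which brings HP1 to its sites through DNA sequence and not through the mark. The question put to the lists here is whether genes of the mark's own machinery carry Adnp peaks, or HP1γ peaks that lack the Adnp motif. Neither list marks sites of the whole complex.

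The Adnp list is tied by the series text to 3 ChIP-seq replicates of cells labelled Adnp FlagAvi, in which Adnp carries a tag that was captured on streptavidin beads. The HP1γ list was limited by the authors to peaks that lack the motif of Adnp. It belongs to 3 replicates labelled Cbx3 FlagAvi, which have wild-type Adnp, and 3 labelled Cbx3 FlagAvi, Adnp KO; Cbx3 encodes HP1γ. All of these cells were untreated, of a mixed 129 and C57BL/6 background, and grown in 2i medium with LIF; how many clones the lines came from was not stated. Each list is pooled, so values have no replicate error, and every HP1γ peak has the knockout in its name, so the genotype behind a given peak is not known. The lists hold 15026 Adnp peaks with an authors' score and 2047 HP1γ peaks whose score is 0 throughout; depth is unknown, and no expression value was used, so neither the cell type nor the activity of these genes was checked.

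Atf7ip was the only member with peaks of both lists inside. It encodes a nuclear partner of Setdb1 that supports the enzyme's stability and its activity. The gene spans chr6:136518789-136610850 on the plus strand (92.1 kb), and 3 HP1γ peaks and 2 Adnp peaks lay in it or at its start. The window from 250 bases before to 50 bases after its start site is printed because it is the only member's promoter that a peak of either list touched. It comes from RefSeq (GRCm38.p6, chr6:136518601-136518900, plus strand, 5′ to 3′), and capitals mark the bases under an HP1γ peak.
Atf7ip promoter: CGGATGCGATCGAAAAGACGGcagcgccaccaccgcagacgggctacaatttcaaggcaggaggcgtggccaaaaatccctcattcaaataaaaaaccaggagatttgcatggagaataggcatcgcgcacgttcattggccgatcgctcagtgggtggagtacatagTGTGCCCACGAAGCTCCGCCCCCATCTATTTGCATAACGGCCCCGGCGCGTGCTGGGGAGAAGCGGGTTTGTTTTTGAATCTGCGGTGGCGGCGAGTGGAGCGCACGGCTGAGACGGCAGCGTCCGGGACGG

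The first HP1γ peak (chr6:136518258-136518621, 364 bp) ended inside the first bases of that window, and the second (chr6:136518769-136519473, 705 bp) began within it and ran into the gene. Together they covered 153 of the 300 bases, all in capitals above. An Adnp peak (chr6:136518654-136519545, 892 bp, authors' score 27.6) covered 247 of them, and 132 bases lay under both kinds of peak. The second HP1γ peak lay whole within this Adnp peak, with an overlap of 705 bp. The window is rich in the dinucleotide CG, with 29, and 13% of all 32619 windows of the table have as many. Of the words searched on both strands, GGGCGG (the GC box) occurred 1 time, from base 184 to 189 of the window on the other strand and under both peaks. CCAAT occurred 1 time, also on the other strand, from base 136 to 140 and under the Adnp peak alone. TATAAA was not among the letters of the window. The octamer ATTTGCAT, searched for after the sequence had been seen, occurred at 2 places on the printed strand, from base 104 to 111 and from base 196 to 203. All windows of the table hold GGGCGG in 35.9% of cases, CCAAT in 37.6%, TATAAA in 13.7% and ATTTGCAT in 1.75%, with 0.104% holding the octamer at 2 or more places. These are matches of letters and not evidence of binding.

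The HP1γ peaks of Atf7ip did not form a dense run along the gene. They fell into a pair over the start and a single peak further in. The pair spanned 1216 bp with 147 bp between its peaks, and the third peak (chr6:136527117-136527528, 412 bp) followed after a gap of 7643 bp. With peaks joined at gaps of up to 10 kb, the run extended over chr6:136518258-136527528, which is 9271 bp. It reached over the first 9.49% of the gene, and peaks covered 16% of its extent. A joining gap of 5 kb left the pair alone. The nearest HP1γ peak before the run was 20.4 kb away and the next one after it 3790 kb away, so the rest of the gene had none. Of the 77 runs of 3 or more HP1γ peaks on chromosomes 1 to 19 and X, 60 were as short as this run or shorter, and their median extent was 4.14 kb. The longest-membered run held 12 peaks, and 35 runs held 4 or more. The first peak lay outside Atf7ip, in the lncRNA gene Gm44140, which ends just before Atf7ip begins.

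**Figure D1:**
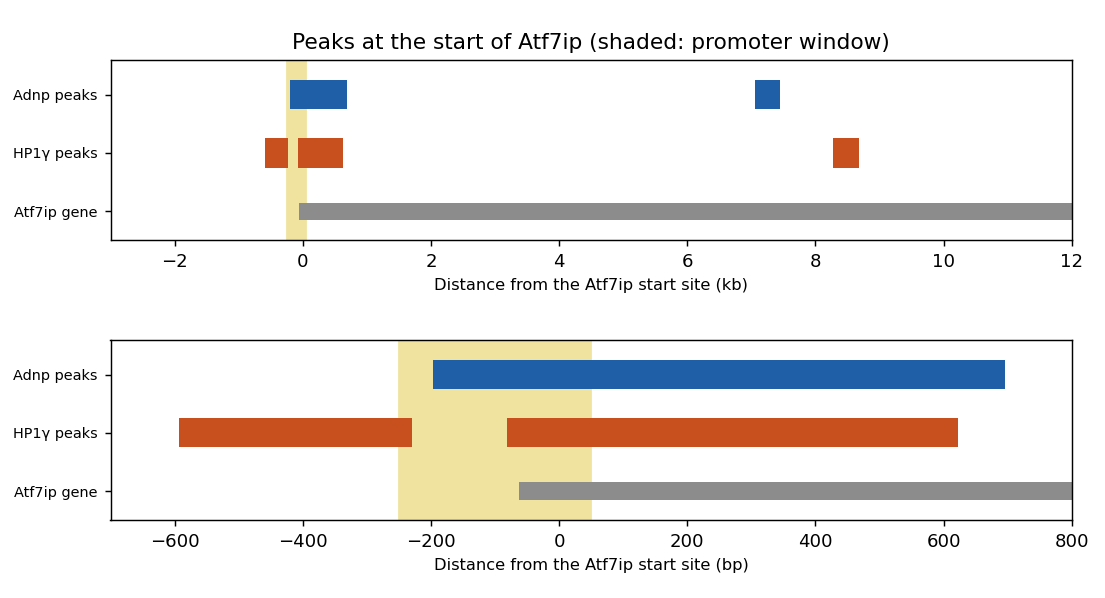
HP1γ and Adnp peaks at the start of Atf7ip, by distance from its start site in kb (upper panel) and in bp (lower panel), with each peak drawn at its true width and the 300-base promoter window shaded. A pair of HP1γ peaks spanning 1216 bp flanks and enters the window, the 892 bp Adnp peak covers most of it, and the third HP1γ peak lies 7643 bp further in.

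By the likeness of runs (2 HP1γ peaks inside the gene at most 10 kb apart, then the nearest extent), the genes closest to Atf7ip were Cops7a, Bst1 and Sh3rf1. Inside Atf7ip alone the run was 8760 bp long, against 8747 bp in Cops7a, a COP9 signalosome gene on chromosome 6, 8720 bp in Bst1 on chromosome 5 and 8524 bp in Sh3rf1 on chromosome 8. There were 84 protein-coding genes with an inside run, 55 of them with exactly 2 peaks. Cops7a and Sh3rf1 also held 2 Adnp peaks each, as did Atf7ip, and Bst1 held 1.

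HP1γ peaks are rare over all genes, and few of the 10 genes had one. Atf7ip was the single member with an HP1γ peak inside (background 2.86% of all protein-coding genes), within 5 kb of an end (2.04%) and over its promoter window (0.509% of 17274 protein-coding genes with a window). Within 20 kb of an end there was also Setdb1, which makes 2 of 10 against 5.88%. The Setdb1 peak (chr3:95377125-95377771, 647 bp) lay 19923 bp beyond the gene's start side, just within that limit, and by its centre it fell outside. Resf1 was the nearest gene beyond the limit, with an HP1γ peak 25.7 kb away, followed by Morc3 at 42.7 kb. For the other 6 members the nearest HP1γ peak was 262 kb (Trim28) to 2580 kb (Ehmt1) away. A single member makes 10 percentage points of these shares. Of the 4182 protein-coding genes between 0.5 and 2 times the length of Atf7ip, 6.26% had an HP1γ peak inside. As many as the 2 inside Atf7ip were held by 1.32% of them. Over protein-coding genes, 13 (0.0753%) had both kinds of peak over a promoter window, which is 14.8% of the genes with an HP1γ peak there and 5.56% of those with an Adnp peak there. HP1γ peaks with the Adnp motif are not in the list, so sites with both kinds of peak that hold the motif are not counted. The genotype behind an HP1γ peak is not known, so both kinds of peak need not mean both proteins in the same cells.

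Adnp peaks were listed in or near 9 of the 10 genes. Nearness was counted from each gene end on both of its sides, so a peak inside the gene also counts where it lies close to an end. Inside the gene there was an Adnp peak in 5 members (Setdb1, Setdb2, Ehmt2, Atf7ip and Morc3), against 20.7% of all protein-coding genes. No more than 5 kb from either end there was one at 4 (Ehmt2, Atf7ip, Morc3 and Resf1), against 19.3%, and within 20 kb at 9, against 41.2%. Suv39h2 was the exception. Over a promoter window there was one at Atf7ip, against 1.35%. The members were longer than other genes, with a median of 31.4 kb against 17.4 kb, and a longer gene has more room for a peak inside. When only peaks in the upper part of the score range, split at the list's median, were used, the 20 kb count fell from 9 to 4 (background 27.4%) and the inside count from 5 to 3 (12.7%). With a window of 1 kb, Atf7ip alone of the 10 had an Adnp peak (5.38%).

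**Figure D2:**
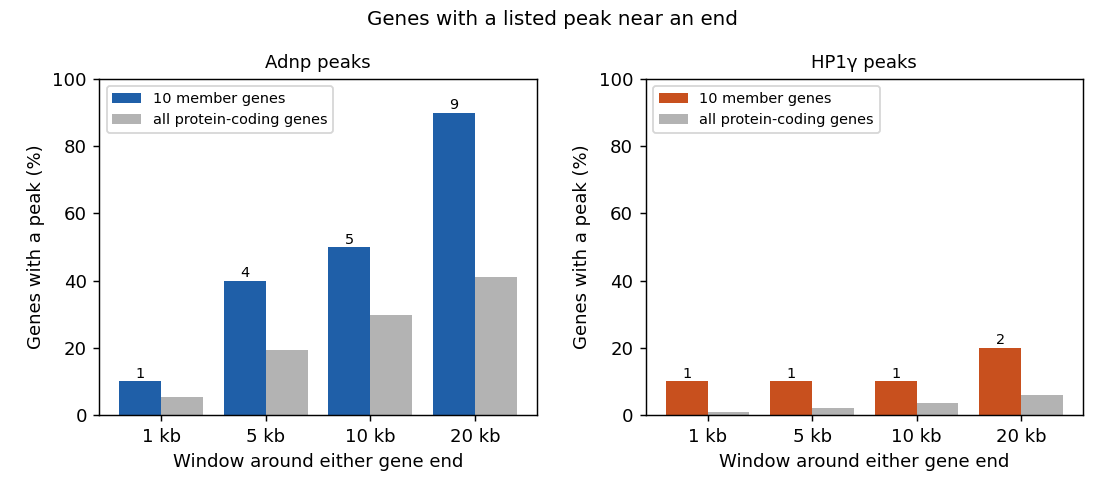
Share of genes in percent with a listed peak within 1, 5, 10 or 20 kb of either end, for the 10 genes (coloured bars, number of genes above each) and for all 21523 protein-coding genes (grey bars). The Adnp counts go from 1 at 1 kb to 9 at 20 kb beside backgrounds of 5.38% and 41.2%, and the HP1γ counts are 1 or 2 throughout.

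In all, 22 Adnp peaks lay inside a member or within 20 kb of it. They were 7 inside, 11 upstream of the gene and 4 beyond its far end. Their scores ran from 8.28 to 75.7 with a median of 19.6, where the whole list has a median of 21.2 and quartiles of 13.9 and 33.6. Of the 22, 9 were above the list's median, 2 above its upper quartile and 4 below its lower quartile. The 2 highest were both at Morc3, and the 4 lowest were at Ehmt1, Ehmt2, Resf1 and Morc3. A single one overlapped an HP1γ peak, the one at the start of Atf7ip. The HP1γ list leaves out peaks with the Adnp motif, so an overlap at such a site could not be counted.

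**Figure D3:**
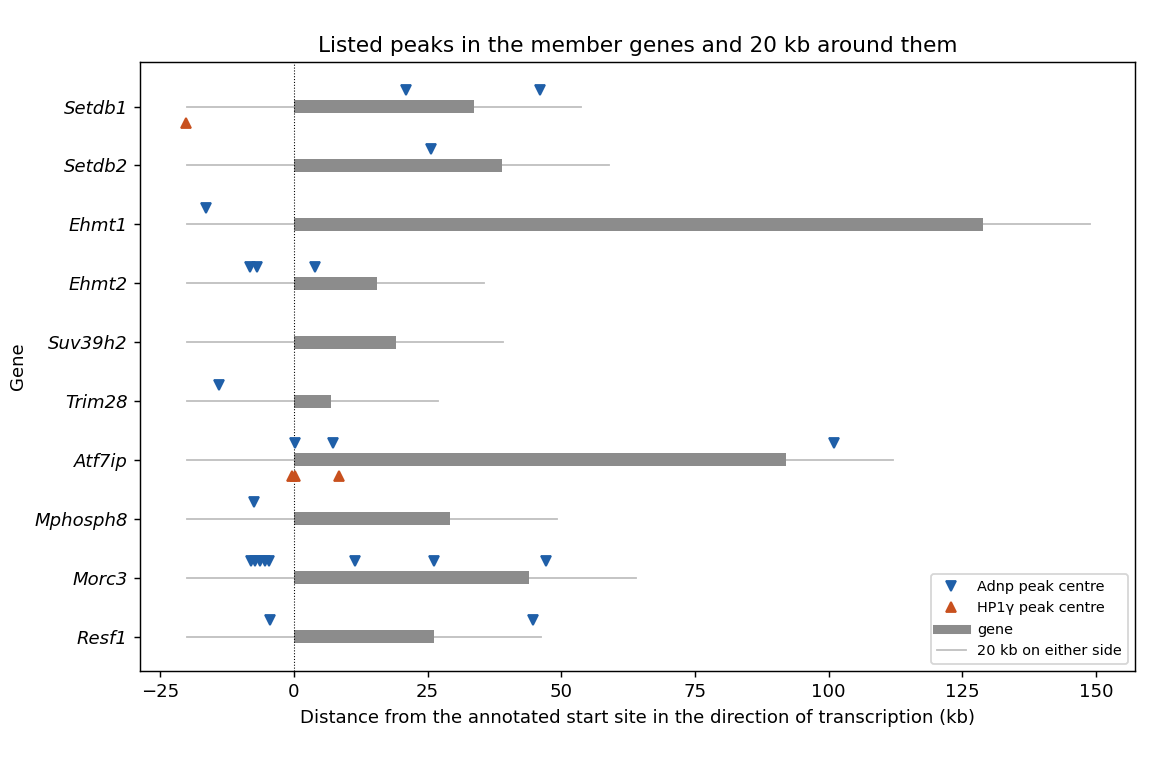
The 10 genes aligned at their annotated start sites, with transcription to the right and distance in kb; triangles mark the centres of Adnp peaks (pointing down) and HP1γ peaks (pointing up), grey bars the genes and thin lines 20 kb on either side. Of 22 Adnp peaks, 8 belong to Morc3, Suv39h2 has none, and 3 of the 4 HP1γ peaks are at Atf7ip.

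Among the genes of the Setdb1 pathway, Setdb1 (chr3:95323525-95357202, minus strand), the enzyme that trimethylates H3K9 at retroelements, held 1 Adnp peak. It lay at chr3:95336111-95336468, 20.9 kb downstream of the start site with a score of 19.2, just under the list's median. Another, with a score of 21.6, lay 12.1 kb beyond the far end, inside the neighbouring gene Anxa9. Cers2 and LOC115489748 also had an end within 5 kb of that peak. Trim28 (chr7:13024152-13031032), the corepressor that recruits Setdb1, is a short gene of 6.88 kb with no peak inside. Its nearest Adnp peak (score 15.5) lay 13.7 kb upstream and overlapped Zbtb45, a neighbouring zinc finger gene. Resf1 (chr6:149309409-149335663), a retroelement silencing factor that binds Setdb1, had an Adnp peak 4.34 kb upstream (chr6:149304822-149305072). At 251 bp and a score of 8.96 it lay below the lower quartiles of the list for width (328 bp) and score, and the second one lay 18.3 kb beyond the gene with a score of 14.7.

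Morc3 (chr16:93832121-93876077), an ATPase of the MORC family that acts in the silencing of retroelements, had the most Adnp peaks, with 8 in the gene and 20 kb around it. Of all protein-coding genes, 0.692% had as many. A group of 5 peaks upstream of the gene spanned chr16:93823908-93827638, which is 3731 bp, with gaps of 267 to 728 bp between them. Their scores were 30.1, 30.5, 14.4, 22.3 and 39.3 from the far peak to the near one, and all 5 lay inside the lncRNA gene Gm30881, whose span reaches across the start of Morc3. The nearest of them was 4483 bp from Morc3 and the next 5121 bp, on either side of the 5 kb limit. With Adnp peaks joined at gaps of up to 1 kb, 95.5% of 14292 groups were single peaks, and 3 groups of the list held 5 or more.

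Inside Morc3 lay the highest peak of the set, at chr16:93843124-93843861, 11.4 kb downstream of the start site. Its score of 75.7 put it above 95.1% of the list, and it was 738 bp wide. A second inside peak had a score of 8.95. The eighth peak (score 23.9) lay 2929 bp beyond the gene and 4447 bp from Chaf1b, a subunit gene of chromatin assembly factor 1. No HP1γ peak was listed within 42.7 kb, in a list that leaves out HP1γ peaks with the Adnp motif.

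**Figure D4:**
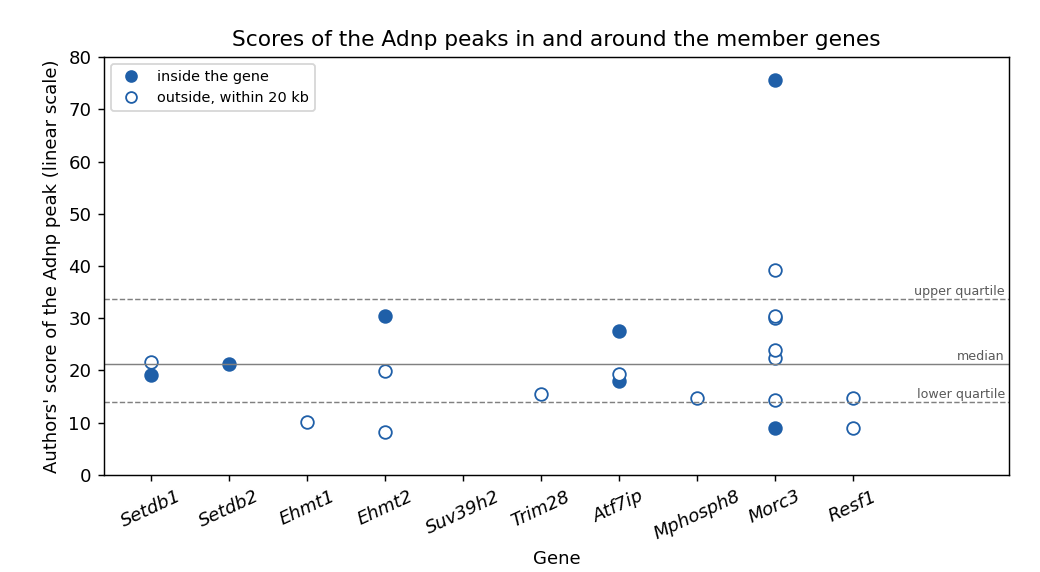
Authors' scores (linear axis) of the 22 Adnp peaks by gene, filled inside the gene and open within 20 kb outside it, with the median and quartiles of the whole list as horizontal lines. Only 2 peaks, both of Morc3, lie above the upper quartile of 33.6, and Suv39h2 has no point.

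Of the partner enzymes, Ehmt2 held an Adnp peak and Ehmt1 did not. Ehmt2 (chr17:34898463-34914073) held a peak at chr17:34902091-34902772, 682 bp wide with a score of 30.4, centred 3.96 kb downstream of its first start site. A further pair of peaks lay 6.59 and 8.02 kb upstream with scores of 19.8 and 8.28, nearer to Zbtb12 than to Ehmt2. Ehmt1 (chr2:24790769-24919643), the longest of the 10 genes at 129 kb, held none, although 44.4% of the 3194 protein-coding genes between 0.5 and 2 times its length did. Its nearest peak (score 10.1) lay 16.3 kb upstream and 605 bp from Arrdc1. The difference between the 2 genes was not tested.

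Suv39h2 (chr2:3455815-3474986), an enzyme that trimethylates H3K9 at pericentric repeats, had no peak of either list within 20 kb; the nearest Adnp peak was 94.3 kb away. Among genes of like length, 20.9% held an Adnp peak. Setdb2 (chr14:59402009-59440880), a relative of Setdb1, held 1 at chr14:59414908-59415426 with a score of 21.2, where 29.9% of genes of like length held at least 1. That peak also lies in Gm45935, a readthrough model of Setdb2 and its neighbour. Mphosph8 (chr14:56668235-56697430) encodes the chromodomain subunit of the HUSH complex, which spreads the mark over transcribed retroelements. It held no peak, and an Adnp peak with a score of 14.7 lay 7.33 kb upstream, 785 bp from Parp4.

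Both lists are parts of longer ones, and their peak names show where numbers are missing. Along each chromosome the numbers follow position without exception, in all 15001 neighbouring pairs of the Adnp list and all 2021 of the HP1γ list. Between the listed Adnp peaks that flank Resf1 no number is skipped, and the numbers 18128 to 18134 around Setdb1 leave 4 unlisted. At Suv39h2 4 numbers are skipped and at Trim28 5, in stretches that reach 1050 kb and 325 kb past the upper ends of the genes, so a gene without a listed peak need not have lacked one in the longer list. In the HP1γ list no number is skipped around Setdb1, Ehmt2 or Trim28. Around Atf7ip 2 are skipped after the third peak, in a stretch that ends 3710 kb past the gene.

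A wider list of 39 genes of the pathway, put together with earlier results known, was counted in the same way. In 16 of them (41%) an Adnp peak came within 5 kb of either end, beside the 19.3% of all protein-coding genes, and 17 (43.6%) had one inside, beside 20.7%. An HP1γ peak came within 5 kb of an end in 2 (5.13%), beside 2.04%, and lay inside 0 of the 39, beside 2.86%. The 39 genes ran from 6.19 kb (Daxx) to 558 kb (Mecom) in length, and these backgrounds were not matched for length. An Adnp peak lay inside 31.7% of genes of like length to Morc3 (44.0 kb) and 42.2% of those of like length to Atf7ip (92.1 kb). By role, Adnp peaks within 5 kb were at 8 of 13 readers and recruiters, 3 of 6 HUSH and MORC genes, 4 of 11 erasers and 1 of 9 other writers and their partners. Inside the gene there were 5, 4, 4 and 4 genes in the same order of naming. As shares of each role these are 38.5%, 66.7%, 36.4% and 44.4%, so the order of roles by share was another. Within 20 kb of an end the counts were 10, 4, 6 and 5. That is 25 of the 39 genes (64.1%), beside 41.2% of all protein-coding genes. Among the Adnp peaks within 5 kb of an end, the highest scores were 72.3 at Zfp809, a zinc finger gene that silences retroviruses, 64.2 at Kdm1a, the gene of the demethylase LSD1, and 57.2 at Uhrf1, which reads H3K9 methylation and hemimethylated DNA. Jmjd1c, the gene of a demethylase-like protein, followed with 46.1, Cbx1, which encodes HP1β, with 38.9, and Morc1, a MORC gene of germ cell silencing, with 28.3. No promoter window of the 39 genes lay under an Adnp peak, but only 17274 of the 21523 protein-coding genes have a window. At Kdm3b an Adnp peak (chr18:34776652-34776977, score 22.8) lay 31 bp outside the lower end of the gene.

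The 2 genes of the wider list with HP1γ peaks within 5 kb of an end were Atf7ip2 and Kdm3a, and within 20 kb there was also Jmjd1c. Atf7ip2, the paralogue of Atf7ip, had a pair of HP1γ peaks (chr16:10187181-10187683 and chr16:10187796-10188001) before its lower end. The farther one lay 4966 bp away at its nearest base, so it only just reached into the 5 kb. Atf7ip2 also held 2 Adnp peaks. At Atf7ip the pair of HP1γ peaks lay over the start itself. Kdm3a, the gene of an H3K9 demethylase, had an HP1γ peak of 927 bp (chr6:71633160-71634086) that began 170 bp beyond the upper end of this minus-strand gene and reached into 8 bases of its promoter window. It had no Adnp peak within 20 kb.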

How the data were processed

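ChIP-seq peak positions were used, from 2 deposited BED files that have no headers; the authors pooled the replicates. MACS2, Bowtie 1.0.0, bcl2fastq 1.17 and STAR 2.5.0a are named in the submitters' processing notes, with the build mm10 (GRCm38) but no roles. Caller settings were not given in those sources. The score per peak is the authors' own, of a kind not stated in the deposited file, and served here for ranking within the Adnp list alone. Starts were raised by 1 as for BED files; if they already count from 1, they are 1 base too high.

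Genes came from a RefSeq table of GRCm38.p6 (49214 genes on chromosomes 1 to 19 and X from 3 Mb on). It has no exons, so exonic and intronic peaks could not be told apart. Start sites and strands came from RefSeq promoter windows (250 bases before to 50 after each start). A peak was inside a gene if they shared at least 1 bp, and near it if any part lay within 5 or 20 kb of either end, on its inner or outer side. Members, lists and rules were chosen with earlier results of these data known. Named genes were all members, coding genes sharing a member's peak within 5 kb, and the 3 genes with the nearest inside run. Up to 6 list genes with a peak within 5 kb were named as well. Other neighbours and Kdm3b were named after their positions were seen. Because peak counts were known when the members were chosen, no test was made. Alternatives were other windows, peak centres, all genes as background, Adnp peaks on the upper side of the median score, peaks of 1 list alone, and joining gaps of 5 and 20 kb. The interval counts were checked on simulated data. Python 3.11.15, NumPy 2.4.6, pandas 2.3.3 and matplotlib 3.10.9 were used.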

Additional observations from a re-analysis of the deposited data

How the results depend on the processing

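Of 21 alternative values for 7 results, 16 were near the value reported (a ratio of at most 1.5). Those 16 include the values with all genes as background, where the count of members could not change. There only the background share moved. For Adnp peaks it went from 19.3% to 14.3% within 5 kb and from 41.2% to 31.5% within 20 kb. For HP1γ peaks it went from 2.04% to 1.59% and from 5.88% to 4.73%. The 5 values that were not near were as follows. With a window of 1 kb in place of 5 kb, 1 of the 10 genes had an Adnp peak near an end and not 4. With the Adnp peaks on the upper side of the median score, 4 genes had a peak within 20 kb of an end and not 9, and 3 had one inside and not 5. By peak centres, 1 gene had an HP1γ peak within 20 kb and not 2, because the Setdb1 peak straddles the limit. Joined at gaps of up to 5 kb, the HP1γ run of Atf7ip was 1216 bp and not 9271 bp, because the peak further into the gene is 7643 bp off. No paired analysis was possible because each list is pooled over replicates, and for the same reason no replicate could be left out. Depth is unknown, so a gene without a listed peak is not shown to lack the protein.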

Other observations

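The Adnp list is in order of position for its first 14667 rows and is followed by 359 more, 2.39% of the list. Of the 22 Adnp peaks in and around the 10 genes, 2 stood among those last rows: the farther upstream peak of Ehmt2, with a score of 8.28, and the peak upstream of Trim28, with a score of 15.5. Adnp peaks of 600 bp or more made up 5 of the 22 (22.7%), against 10.4% of the whole list. They were the peaks at the start of Atf7ip, inside Ehmt2 and upstream of Trim28, and a pair at Morc3. The median width of the 22 was 380 bp, against 396 bp for the whole list.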
